A study of Mus musculus with 6 samples.

Results

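The 30 genes described here encode enzymes of sterol and fatty acid synthesis and the SREBP proteins that control them, read in long-term (LT) stem cells of chronic myelogenous leukaemia (CML) with and without Gdpd3. They were chosen by symbol, with earlier results of these data known. The deposited RNA-Seq table lists 36976 genes, and 29 of the 30 were found in it by symbol or gene identifier. Hmgcs1, the synthase at the entry to the mevalonate arm, was not analysed here. All 29 passed the limit of a mean FPKM (fragments per kilobase of exon, scaled to the mapped depth) of 0.05 over the libraries, which left 24689 genes for testing.

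The 6 libraries came from tet-CML-affected C57BL/6 mice, 3 from Gdpd3+/+ mice (replicates 1, 2 and 3) and 3 from Gdpd3-/- mice (replicates 5, 6 and 7), whose gene was disrupted by genome editing. Mice of both genotypes carried SCL-tTA and TRE-BCR-ABL1, so that the SCL promoter drives the transactivator in stem and progenitor cells and withdrawal of doxycycline switches BCR-ABL1 on. LT-CML stem cells were sorted at 5 weeks after induction as CD150+CD48-CD135- Lineage-Sca-1+cKit+ cells. The Gdpd3+/+ libraries were made from 34 mice (22 male, 12 female) and the Gdpd3-/- libraries from 10 (5 of each sex), so each library stands for pooled mice, and genotype cannot be told apart from that difference in sex ratio. RNA was amplified as full-length cDNA before sequencing.

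Depth on genes, read from the step size of the FPKM values, was 4.98 to 6.28 Gb (gigabases) in Gdpd3+/+ and 2.13 to 3.64 Gb in Gdpd3-/-, so genotype and depth cannot be told apart either. Gdpd3 had an FPKM of 7.30, 3.29 and 2.95 in Gdpd3+/+ and of 0.110, 0.0129 and 0.681 in Gdpd3-/- replicates 5, 6 and 7, which fits the labels. The Gdpd3-/- libraries did not resemble each other as closely as the Gdpd3+/+ libraries did. Across the 15103 genes whose mean FPKM was 1 or more, Pearson's r was 0.973 to 0.979 between Gdpd3+/+ libraries and 0.808 to 0.865 between Gdpd3-/- libraries, and only replicate 7 reached 0.930 to 0.933 against Gdpd3+/+. Every result on the members is therefore also given library by library.

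Animal cells build cholesterol from acetyl-CoA through mevalonate, isoprenoid units, squalene and lanosterol, and the isoprenoid units also serve to anchor small GTPases in membranes. Fatty acids are built from the same acetyl-CoA by Acaca and Fasn, and are then lengthened by Elovl enzymes and desaturated by Scd and Fads enzymes before they enter phospholipids. Both arms are switched on by SREBP transcription factors, which Scap carries from the endoplasmic reticulum to the Golgi for cleavage when sterols are low and which Insig proteins hold back when sterols are high. Gdpd3 is a lysophospholipase D and acts on lysophospholipids, which contain such fatty acids.

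All 29 genes were detected in every library. Mean FPKM in Gdpd3+/+ ran from 1.15 for Acaca to 69.2 for Fdps, on a scale that is corrected for length and so can be compared between genes. The highest levels belonged to Fdps at 69.2 ± 1.08 (SD, n = 3), Elovl1 at 47.5 ± 1.22, Elovl5 at 41.8 ± 3.06, Acly at 38.5 ± 0.381, Scd2 at 37.5 ± 3.47 and Srebf2 at 33.4 ± 1.52 (SD, n = 3 each). Fdps and Elovl1 stood clear of the genes below them, whereas the libraries of Scd2 overlapped those of Elovl5, Acly and Srebf2. The lowest levels were those of Acaca, Scd1 at 1.31 ± 0.279, Lss at 1.95 ± 0.196 and Hsd17b7 at 2.19 ± 0.327 (SD, n = 3 each). Among the desaturases of stearoyl-CoA, Scd2 was thus the abundant form and Scd1 the scarce one, and of the SREBP genes Srebf2 exceeded Srebf1 (9.50 ± 0.472) in every library of either genotype. The plot of levels shows the whole order.

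**Figure D1:**
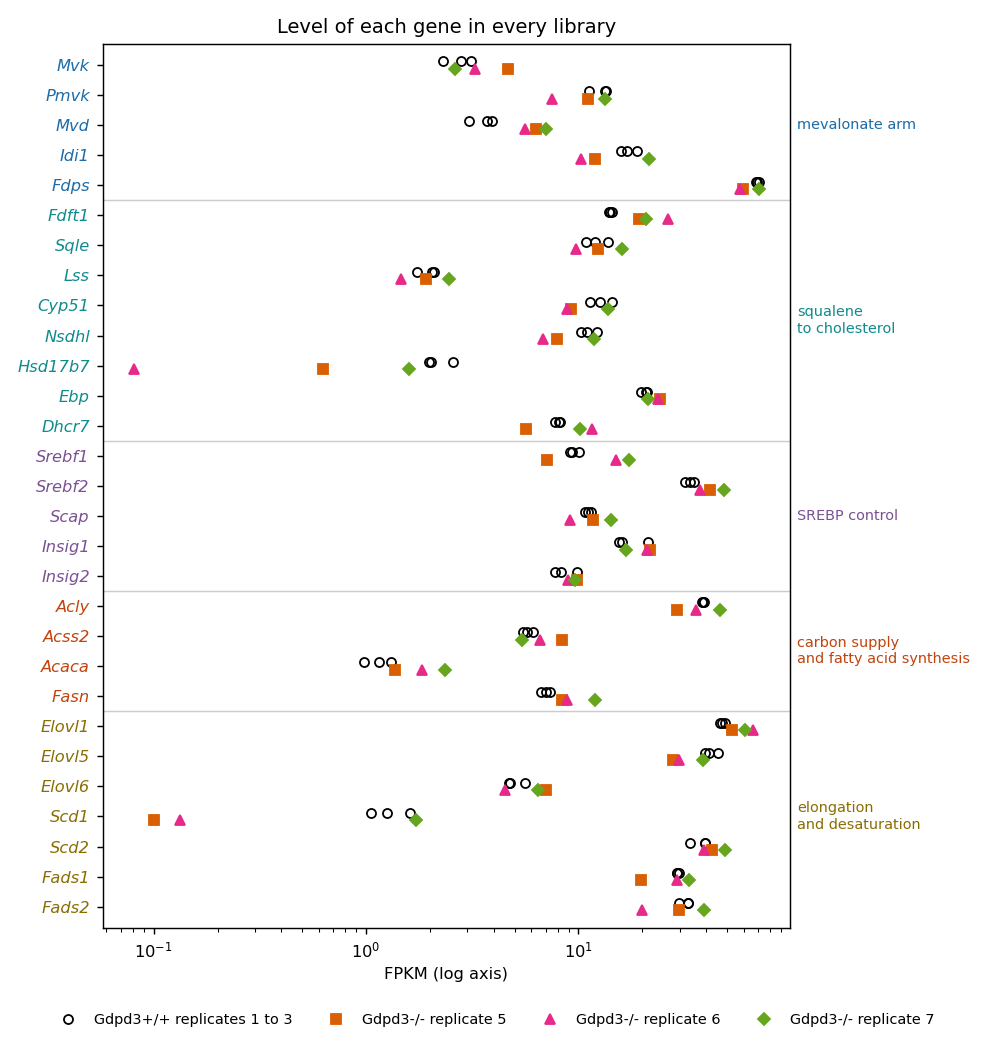
FPKM of each of the 29 genes (rows, ordered and coloured by role) in every library on a log axis, with Gdpd3+/+ libraries as open circles and Gdpd3-/- libraries as filled symbols. The genotypes interleave in most rows, and the 2 widest gaps are those of Hsd17b7 and of Scd1, where Gdpd3-/- replicates 5 and 6 lie far to the left.

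Promoter sequences were at hand for 23 of the 29 genes, from RefSeq on the GRCm38.p6 build, 250 bases before to 50 bases after each start. SREBP binds sterol response elements and usually acts beside NF-Y, which binds CCAAT, so both motifs and the E-box CACGTG were searched on both strands. CCAAT stood in a promoter of 19 of these 23 genes (82.6%), against 41.1% of the 27025 genes in the promoter table, which also holds noncoding genes. A promoter with at least 2 CCAAT matches was found for 10 of the 23 (43.5%) and for 13.3% of all genes, and Mvk had the most with 5. CACGTG stood in 5 of the 23 (21.7%), which were Dhcr7, Elovl5, Hsd17b7, Insig1 and Scap, against 8.09% of all genes. The sterol response element spelled TCACNCCAC was matched in 0 of the 23 and in 1.44% of all genes, which says only that these letters are not in these windows. The matches are a description of the reference sequence and no measure of binding.

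Stretches that end just before the start are shown for Mvd and Idi1 of the mevalonate arm, which had opposite fitted changes, and for Hsd17b7 and Elovl5, whose levels did not overlap between the genotypes. Each stretch has 2 CCAAT matches in capitals, written as ATTGG where the match is on the other strand. Mvd lies on the minus strand at chr8:122443423-122443502, Idi1 on the plus strand at chr13:8885526-8885605, Hsd17b7 on the minus strand at chr1:169969206-169969285 and Elovl5 on the plus strand at chr9:77917285-77917364.
Mvd: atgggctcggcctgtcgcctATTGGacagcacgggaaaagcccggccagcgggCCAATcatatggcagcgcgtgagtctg
Idi1: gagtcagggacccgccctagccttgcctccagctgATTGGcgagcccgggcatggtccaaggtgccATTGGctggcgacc
Hsd17b7: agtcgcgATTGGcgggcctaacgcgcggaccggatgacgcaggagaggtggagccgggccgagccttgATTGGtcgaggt
Elovl5: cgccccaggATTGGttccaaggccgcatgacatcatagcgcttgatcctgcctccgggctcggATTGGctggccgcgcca
The spacing of the 2 matches differs between these stretches, and in Mvd the 2 stand on opposite strands.

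**Figure D2:**
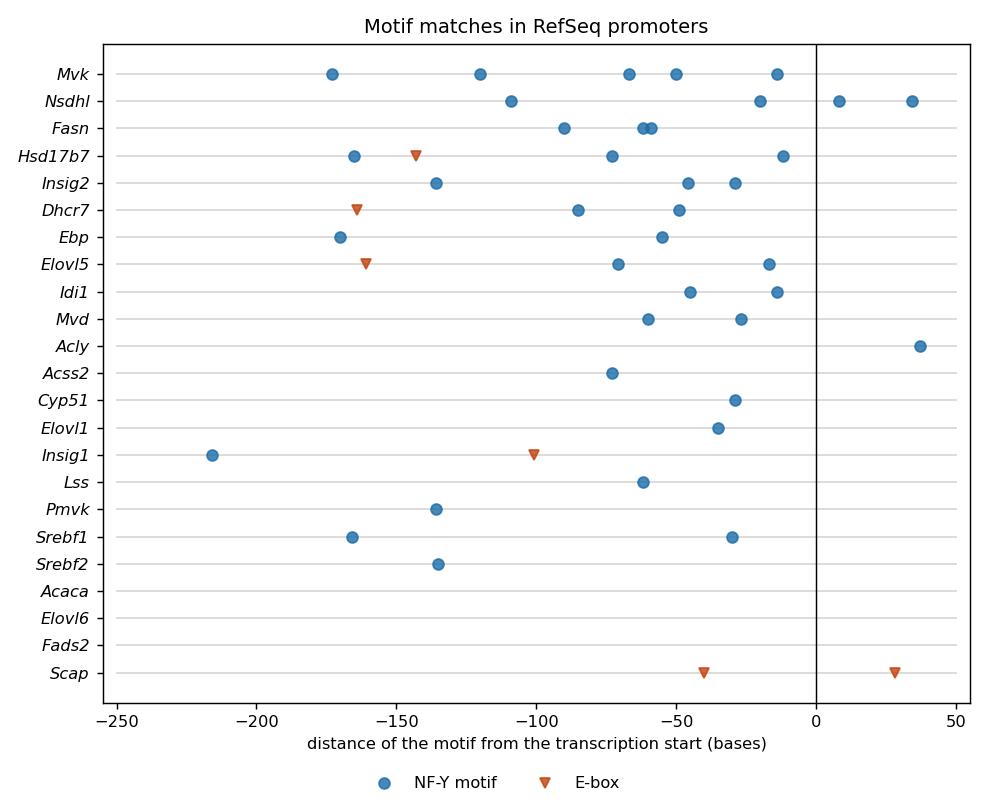
Position of NF-Y motif matches (circles) and E-boxes (triangles) on either strand in the RefSeq promoters of 23 genes, in bases from the transcription start, with the matches of all starts of a gene on 1 row. Most NF-Y matches lie within 100 bases before the start, and Acaca, Elovl6, Fads2 and Scap have none.

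Whether loss of Gdpd3 goes with a shift of lipid synthesis genes was asked first of all 29 together. None of them was called between the genotypes by limma with Benjamini-Hochberg adjustment at a threshold of 0.05, against 1.71% of all genes tested. The disrupted gene Gdpd3 was not called by this test either (log2 fold change -4.00, adjusted p = 0.0588). The absence of a call is therefore no evidence of an unchanged level. At an unadjusted p under 0.05 there were 7 of 29 (24.1%), against 22.2% of all genes tested, with 5 higher in Gdpd3-/- (Mvd, Fdft1, Srebf2, Fasn and Elovl1) and 2 lower (Hsd17b7 and Elovl5). By overlap of the libraries, 7 genes (24.1%) lay higher in all Gdpd3-/- than in all Gdpd3+/+ libraries, against 23.5% of all genes, and 2 (6.90%) lay lower, against 8.27%. The share of these genes with a shift was near the background by each of these measures. The separations depended on the scaling in part. After trimmed mean of M values (TMM) scaling 2 members lay higher without overlap (Mvd and Fdft1) and 4 lower (Fdps, Nsdhl, Hsd17b7 and Elovl5), where 14.5% and 15.5% of all genes did, and after quantile normalization 3 lay higher (Mvd, Fdft1 and Fasn) and 3 lower (Fdps, Hsd17b7 and Elovl5), where 13.6% and 15.5% of all genes did. Mvd, Fdft1, Hsd17b7 and Elovl5 were apart under all 3 scalings. The share of all genes apart under all 3 was not counted, so this says nothing of the members as a group.

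The fitted log2 fold changes (Gdpd3-/- against Gdpd3+/+, on log2(FPKM + 0.1)) had a median of 0.13 over the 29 genes and of 0.24 over all genes tested, and 17 were above and 12 below 0. This balance moved with the scaling. After TMM scaling the medians were -0.08 for the members and 0.05 for all genes, and after quantile normalization 0.02 and -0.01. For 24 of the 29 genes the group means differed by less than 1.5-fold, and for 24 the 95% interval of the fitted change stayed within a doubling or halving. The intervals of Mvd, Hsd17b7, Srebf1, Acaca and Scd1 reached beyond that, so for these the interval holds a doubling or a halving. The spread between libraries was wider in Gdpd3-/- for 26 of the 29 genes, with a median coefficient of variation of 23.5% against 9.04% in Gdpd3+/+, close to the 23.6% and 8.65% of all genes whose mean FPKM was 1 or more.

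**Figure D3:**
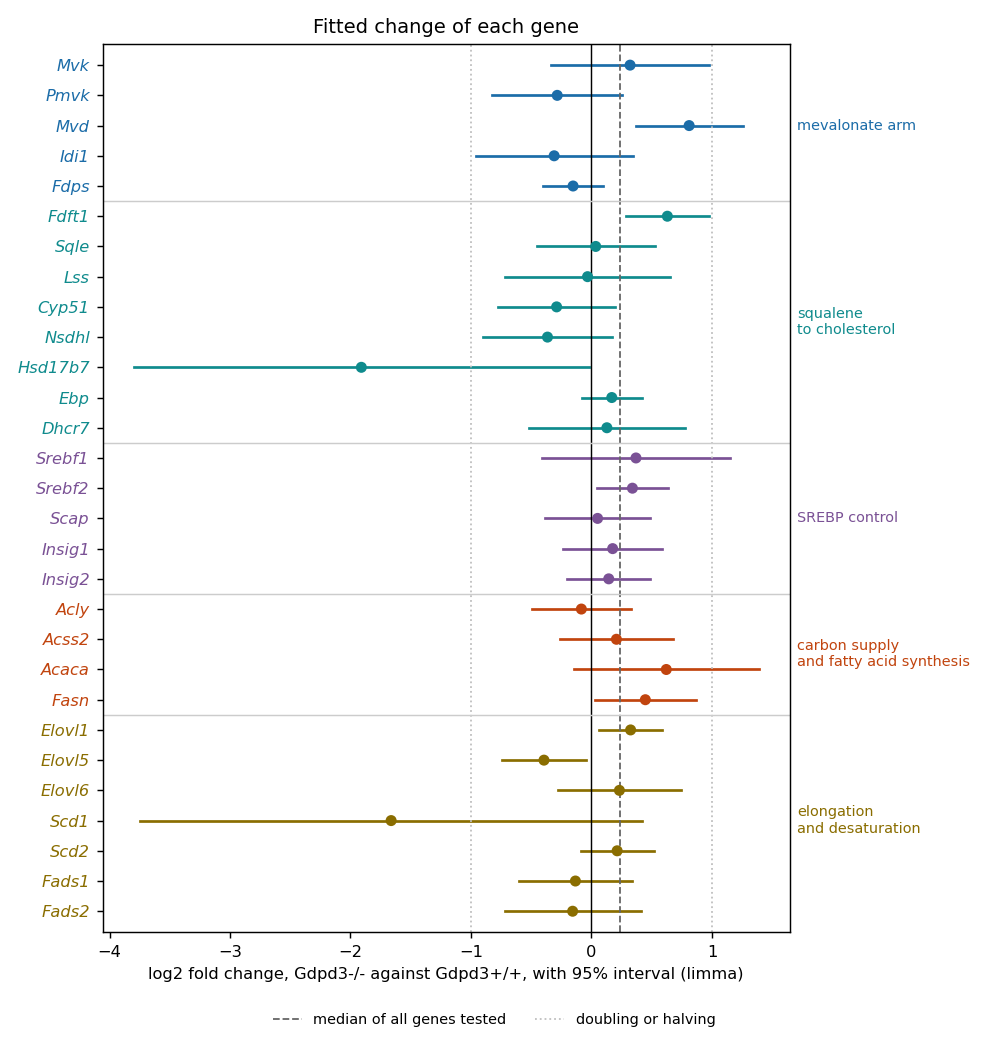
Fitted log2 fold change of each gene with its 95% interval from limma, beside 0, the median of all genes tested (dashed) and the lines of a doubling or halving (dotted). Intervals of 24 genes stay within the dotted lines, and Hsd17b7 and Scd1 have the widest.

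In the mevalonate arm, 5 genes were read and their median log2 fold change was -0.15 (-0.36 under TMM scaling and -0.30 under quantile normalization). Mvd, which decarboxylates mevalonate pyrophosphate to isopentenyl pyrophosphate, had an FPKM of 3.90, 3.70 and 3.05 in Gdpd3+/+ and of 6.28, 5.61 and 7.003 in Gdpd3-/- replicates 5, 6 and 7. All 3 Gdpd3-/- libraries were above all Gdpd3+/+ libraries, also under TMM scaling and quantile normalization. The group means were 3.55 ± 0.444 and 6.30 ± 0.695 (SD, n = 3 each; exact permutation test, two-sided, p = 0.1, which is the lowest that 3 libraries against 3 can give), a ratio of 1.77. The log2 fold change was 0.81 (standard error 0.19) with an adjusted p of 0.081 by limma with Benjamini-Hochberg adjustment, so Mvd had the largest positive fitted change of the 29 genes without passing the threshold.

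The neighbours of Mvd in the pathway did not follow it. Idi1, which turns isopentenyl into dimethylallyl pyrophosphate, had an FPKM of 18.9, 15.8 and 16.9 in Gdpd3+/+ and of 12.0, 10.3 and 21.4 in Gdpd3-/-, so that replicates 5 and 6 were below and replicate 7 above every Gdpd3+/+ library. Fdps, the farnesyl pyrophosphate synthase, had 69.0, 68.3 and 70.4 in Gdpd3+/+ and 59.2, 57.9 and 70.5 in Gdpd3-/-. Replicates 5 and 6 of Fdps were again low, but replicate 7 was level with the highest Gdpd3+/+ library (70.46 against 70.42). Under TMM scaling and quantile normalization, replicate 7 of Fdps was below every Gdpd3+/+ library. Pmvk, the phosphomevalonate kinase, had 13.3, 13.5 and 11.2 in Gdpd3+/+ and 11.1, 7.49 and 13.3 in Gdpd3-/-. Their log2 fold changes of -0.31, -0.15 and -0.28 for Idi1, Fdps and Pmvk did not pass the test. Mvk, the mevalonate kinase, ran the other way, with 2.31 to 3.13 in Gdpd3+/+ and 4.65, 3.28 and 2.63 in Gdpd3-/- replicates 5, 6 and 7, and a log2 fold change of 0.32.

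From squalene to cholesterol, 8 genes had a median log2 fold change of 0.0015, which was -0.20 under TMM scaling, -0.22 under quantile normalization and -0.18 without Gdpd3-/- replicate 7. Fdft1, the squalene synthase that commits farnesyl pyrophosphate to sterols, had an FPKM of 13.9, 14.1 and 14.3 in Gdpd3+/+ and of 19.3, 26.4 and 20.7 in Gdpd3-/-. The Gdpd3+/+ libraries were tightly grouped, all Gdpd3-/- libraries were above them, and this held under both other scalings. The fitted change of Fdft1 was 0.63 on the log2 scale (standard error 0.14) with an adjusted p of 0.0805 (limma with Benjamini-Hochberg adjustment), the smallest of the 29 genes, and the exact permutation test gave p = 0.1. In the deposited annotation 769 bases (26.9%) of the Fdft1 exons are shared with Ctsb, which runs the other way, and whether counting used strand is not given in the sources used here. Ctsb, a lysosomal protease, had an FPKM of 101 to 104 in Gdpd3+/+ and of 92.4, 78.2 and 79.0 in Gdpd3-/-, the opposite direction to Fdft1.

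Hsd17b7, which reduces the keto group left after removal of the methyl groups from the sterol ring, had the largest negative fitted change. Its FPKM was 2.57, 1.98 and 2.03 in Gdpd3+/+ and 0.624, 0.0807 and 1.598 in Gdpd3-/- replicates 5, 6 and 7, so all Gdpd3-/- libraries were below all Gdpd3+/+ libraries under each scaling but differed greatly among themselves. The values rest on few reads. Covered bases divided by a read length of 150 give about 45.3, 10 and 137 reads in Gdpd3-/- and 423 to 435 in Gdpd3+/+. The log2 fold change of -1.91 had a standard error of 0.79, an interval from -3.80 to -0.02 and an adjusted p of 0.222 by limma with Benjamini-Hochberg adjustment. Hsd17b7 did not pass the threshold, nor did it when replicate 7 was left out (log2 fold change -2.65, adjusted p = 0.0556). The size of its change rested on replicate 6 and on the pseudocount, being -1.04 without replicate 6 and -0.94 with a pseudocount of 1.

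The other enzymes of this stretch had fitted changes of at most 0.37 in size. Cyp51, the lanosterol demethylase, had an FPKM of 14.4, 12.7 and 11.3 in Gdpd3+/+ and of 9.25, 8.86 and 13.7 in Gdpd3-/-, and Nsdhl, which acts after it, had 10.2, 11.0 and 12.2 in Gdpd3+/+ and 7.92, 6.81 and 11.9 in Gdpd3-/-. In both, replicates 5 and 6 were below every Gdpd3+/+ library and replicate 7 was within their range. Sqle, the squalene epoxidase a control point of this stretch, had 10.8 to 13.8 in Gdpd3+/+ and 12.3, 9.76 and 15.9 in Gdpd3-/-, with a log2 fold change of 0.035 that was -0.17 under TMM scaling and -0.05 under quantile normalization. Lss, which closes the ring to lanosterol, had 1.73 to 2.09 in Gdpd3+/+ and 1.91, 1.46 and 2.46 in Gdpd3-/-, with a log2 fold change of -0.03. The late enzymes Ebp and Dhcr7 were not called, and the interval of Dhcr7 ran from -0.52 to 0.77. Ebp, an isomerase of the sterol ring, had 19.7 to 20.9 in Gdpd3+/+ and 24.1, 23.6 and 21.3 in Gdpd3-/-, without overlap but with a log2 fold change of only 0.17 (-0.04 under TMM scaling), and the libraries overlapped under both other scalings. Dhcr7, the reductase of the last step to cholesterol, had 7.75 to 8.16 in Gdpd3+/+ and 5.69, 11.5 and 10.2 in Gdpd3-/-, on both sides of Gdpd3+/+.

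The 5 genes of SREBP control had a median log2 fold change of 0.18, and each was above 0 (0.05 to 0.37), but under TMM scaling the median was -0.03 and Scap, Insig1 and Insig2 were below 0, while Scap was also below 0 under quantile normalization. That median was 0.32 without Gdpd3+/+ replicate 1 and 0.09 without Gdpd3+/+ replicate 2. Srebf2, the SREBP of sterol synthesis, had an FPKM of 33.4, 34.9 and 31.8 in Gdpd3+/+ and of 41.7, 37.2 and 48.5 in Gdpd3-/-, without overlap. The fitted change of Srebf2 was 0.34 on the log2 scale (standard error 0.12, adjusted p = 0.175 by limma with Benjamini-Hochberg adjustment), and the libraries overlapped under both other scalings. Srebf1, the SREBP of fatty acid synthesis, had 9.14, 9.34 and 10.04 in Gdpd3+/+ and 7.12, 15.1 and 17.3 in Gdpd3-/- replicates 5, 6 and 7. It was thus below Gdpd3+/+ in 1 Gdpd3-/- library and above it in the other two, and its log2 fold change of 0.37 had an interval from -0.41 to 1.15. Without replicate 5 the change of Srebf1 was 0.76, without replicate 6 it was 0.22 and without replicate 7 it was 0.13. Scap had 10.8 to 11.4 in Gdpd3+/+ and 11.7, 9.11 and 14.3 in Gdpd3-/-. In the deposited annotation 985 bases (18.9%) of the Scap exons are shared with 5830462I19Rik, which runs the other way. The FPKM of 5830462I19Rik was 3.06 to 3.22 in Gdpd3+/+ and 2.92, 1.71 and 3.96 in Gdpd3-/-, with replicate 6 lowest and replicate 7 highest, as for Scap. Insig1 and Insig2, the sterol-dependent brakes, stayed close to Gdpd3+/+, with fitted changes of 0.18 and 0.14 and overlapping libraries. Insig1 is itself a standard target of SREBP, and its FPKM was 21.2, 15.5 and 16.1 in Gdpd3+/+ and 21.7, 21.0 and 16.7 in Gdpd3-/-.

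The 4 genes of carbon supply and fatty acid synthesis had the highest median of the role groups, 0.33, which was 0.12 under TMM scaling and 0.12 under quantile normalization. Fasn, the fatty acid synthase, had an FPKM of 6.63, 7.34 and 7.06 in Gdpd3+/+ and of 8.36, 8.81 and 11.9 in Gdpd3-/-, without overlap and with replicate 7 the highest. Its fitted change was 0.45 on the log2 scale (standard error 0.18, adjusted p = 0.204 by limma with Benjamini-Hochberg adjustment). The libraries remained apart under quantile normalization but not under TMM scaling. Acaca, the acetyl-CoA carboxylase that supplies malonyl-CoA to Fasn, had 1.32, 1.15 and 0.976 in Gdpd3+/+ and 1.37, 1.83 and 2.36 in Gdpd3-/-, a narrow separation with a log2 fold change of 0.62 (interval -0.15 to 1.39) that was lost under both other scalings. Acly and Acss2 make acetyl-CoA, from citrate and from acetate. Acly had 38.2 to 38.9 in Gdpd3+/+ and 28.98, 35.8 and 46.3 in Gdpd3-/-, so the Gdpd3-/- libraries lay on both sides of a tight Gdpd3+/+ group, with a log2 fold change of -0.08. Acss2 had 5.498 to 6.10 in Gdpd3+/+ and 8.38, 6.57 and 5.40 in Gdpd3-/-, with a log2 fold change of 0.21 that was -0.0012 under TMM scaling.

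Among the 7 genes of elongation and desaturation the median log2 fold change was -0.13, which was -0.34 under TMM scaling and -0.24 under quantile normalization. Its direction turned to 0.04 at a mean FPKM limit of 1, which drops Scd1, to 0.085 without Gdpd3-/- replicate 5 and to 0.10 without Gdpd3-/- replicate 6. The elongases lay on opposite sides of Gdpd3+/+. Elovl1, which extends saturated and monounsaturated very long chains, had an FPKM of 48.7, 47.6 and 46.3 in Gdpd3+/+ and of 52.6, 66.1 and 60.6 in Gdpd3-/-, while Elovl5, which extends polyunsaturated chains, had 39.2, 41.1 and 45.2 in Gdpd3+/+ and 27.9, 29.8 and 38.4 in Gdpd3-/-. Neither overlapped between the genotypes. The log2 fold change of Elovl1 was 0.32 (standard error 0.11, adjusted p = 0.155) and that of Elovl5 -0.39 (standard error 0.14, adjusted p = 0.179), both by limma with Benjamini-Hochberg adjustment. The separation of Elovl5 held under both other scalings and that of Elovl1 under neither. Elovl6, which lengthens palmitate, had 4.71 to 5.60 in Gdpd3+/+ and 7.002, 4.51 and 6.45 in Gdpd3-/-.

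Scd1 and Scd2 put the first double bond into saturated fatty acids. Scd1 had an FPKM of 1.26, 1.06 and 1.61 in Gdpd3+/+ and of 0.101, 0.133 and 1.71 in Gdpd3-/- replicates 5, 6 and 7. It was thus near 0 in 2 Gdpd3-/- libraries, at about 6.95 and 15.6 reads, and at the upper end of Gdpd3+/+ in the third, at about 139 reads. Its log2 fold change of -1.66 had a standard error of 0.87 and an interval from -3.75 to 0.42, and it was -1.10 without replicate 5 and -0.61 with a pseudocount of 1. Scd2, about 29 times more abundant in Gdpd3+/+, did not share this, with 33.5 to 39.5 in Gdpd3+/+ and 42.5, 38.9 and 49.1 in Gdpd3-/-. Scd1 and Scd2 are near relatives, and how reads that match both were handled is not given in the sources used here. The desaturases of polyunsaturated fatty acids, Fads1 (28.9 to 29.8 in Gdpd3+/+ and 19.7, 29.03 and 33.3 in Gdpd3-/-) and Fads2 (29.8 to 32.8 in Gdpd3+/+ and 29.7, 19.9 and 39.0 in Gdpd3-/-), had replicate 7 highest and log2 fold changes of -0.13 and -0.16.

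An arrangement with replicates 5 and 6 low and replicate 7 high was seen in part of these genes. It was picked out after the values were seen and is described without a test. Replicates 5 and 6 were both below every Gdpd3+/+ library for 10 of the 29 genes (34.5%), against 16.6% of all genes tested and 19.4% of genes whose mean FPKM was 1 or more. These were Pmvk, Idi1, Fdps, Cyp51, Nsdhl, Hsd17b7, Acly, Elovl5, Scd1 and Fads2. In 8 of the 10, replicate 7 lay above the lowest Gdpd3+/+ library, and in 5 of them (Idi1, Fdps, Acly, Scd1 and Fads2) above all Gdpd3+/+ libraries. The share of all genes with these joint arrangements was not counted, so the 8 and the 5 have no background beside them. Of the 5, only Acly and Fads2 kept the arrangement under both other scalings, where replicate 7 of Fdps lay below every Gdpd3+/+ library. The counts for replicates 5 and 6 moved with the scaling. After TMM scaling both replicates were below every Gdpd3+/+ library for 14 of the 29 (48.3%), against 24.1% of all genes, and after quantile normalization for 12 (41.4%), against 25.4%. Both were above every Gdpd3+/+ library for 9 genes (31.0%), against 30.8% of all genes tested, but for only 2 (6.90%) against 23.0% after TMM scaling and for 5 (17.2%) against 21.4% after quantile normalization. Replicate 7 was the highest of the 6 libraries for 15 of the 29 (51.7%), against 20.3% of all genes tested and 20.8% of genes whose mean FPKM was 1 or more. The same count was 10 of 29 (34.5%) after TMM scaling, against 14.6% of all genes, and 13 of 29 (44.8%) after quantile normalization, against 16.0%.

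Against the Gdpd3+/+ mean, the median of the 29 genes was 0.02 in replicate 5, -0.01 in replicate 6 and 0.32 in replicate 7 on the log2 scale, where the median of all genes tested was 0.17, 0.09 and 0.21. Among genes whose mean FPKM was 1 or more, which leaves out many scarce genes, the median was 0.16, 0.12 and 0.19. How the members stood against the rest of the table in the fit depended on that limit, with medians of 0.14 and 0.14 for members and all genes at a limit of 1, and of 0.13 and 0.05 with no limit. Without replicate 7, limma with Benjamini-Hochberg adjustment called 3 of the 29 genes (10.3%), all lower in Gdpd3-/-, against 14.2% of all genes tested called in either direction and 4.36% called lower. They were Idi1 (log2 fold change -0.62, adjusted p = 0.0424), Elovl5 (-0.53, adjusted p = 0.0313) and Scd1 (-2.69, adjusted p = 0.0166).

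**Figure D4:**
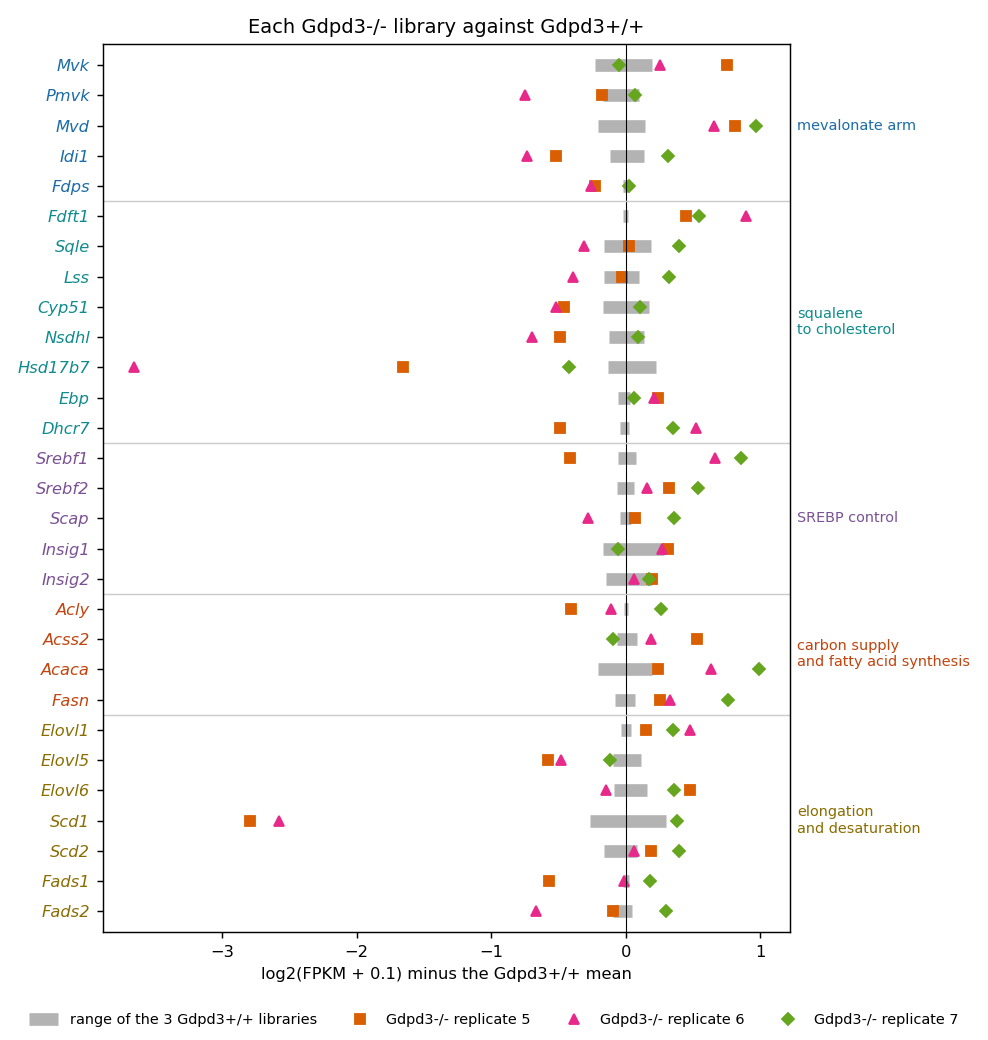
Each Gdpd3-/- library minus the Gdpd3+/+ mean on log2(FPKM + 0.1), gene by gene, with the range of the 3 Gdpd3+/+ libraries as a grey bar. Replicate 7 (diamonds) lies right of the bar for most genes, while replicates 5 (squares) and 6 (triangles) lie left of it for 10 genes.

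**Figure D5:**
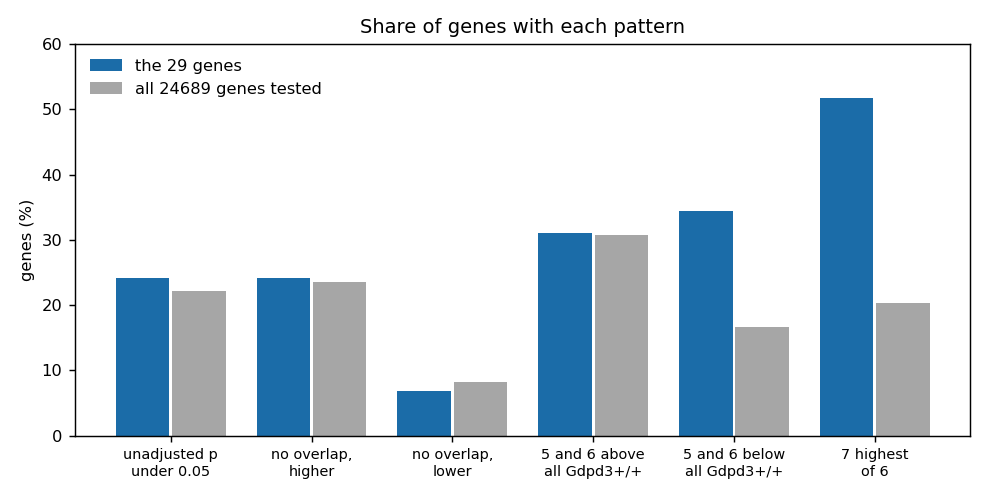
Share of the 29 genes (dark bars) and of all 24689 genes tested (grey bars) with an unadjusted p under 0.05, with no overlap between the genotypes, or with the named arrangement of Gdpd3-/- replicates 5, 6 and 7. On the deposited scale the first 4 pairs of bars are close, and the last 2 differ, with 34.5% against 16.6% and 51.7% against 20.3%.

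Other genes of these pathways, in 5 lists, gave no call by limma with Benjamini-Hochberg adjustment, but calls appeared under other settings. Acsl1 was called lower at a mean FPKM limit of 1 and under TMM scaling. Without Gdpd3-/- replicate 7, when 14.2% of all genes were called, 1 gene listed with the other sterol enzymes was called higher (Acat1) and 1 lower (Lbr). In that fit, 3 of the other fatty acid genes were called higher (Olah, Tecr and Acsl6) and 1 lower (Acsl1). Of the oxidation genes, 4 were called higher (Cpt2, Acadvl, Ppara and Eci1) and 1 lower (Cpt1c). Olah and Ppara entered the test through Gdpd3-/- alone. Counts of unadjusted p for these lists are over genes whose mean FPKM reached 0.05 in both genotypes, where 23.8% of all genes had a p under 0.05. The list medians are on the deposited scale, where the median over all genes tested was 0.24. That median was 0.05 after TMM scaling, and the list medians are not given under other scalings. None of the 11 genes listed as other sterol synthesis enzymes was called. Of these, 3 had an unadjusted p under 0.05 (1 higher and 2 lower), and the median log2 fold change of the list was 0.09. The smallest p in this list belonged to Acat1 and Lbr. Acat1, an acetyl-CoA acetyltransferase, had an FPKM of 36.6, 36.9 and 39.5 in Gdpd3+/+ and of 49.6, 55.2 and 47.5 in Gdpd3-/- (log2 fold change 0.43, adjusted p = 0.0821 by limma with Benjamini-Hochberg adjustment). Acat2, the other acetyl-CoA acetyltransferase of the list, had 19.6, 21.8 and 18.8 in Gdpd3+/+ and 15.6, 29.8 and 26.7 in Gdpd3-/- (log2 fold change 0.21, adjusted p = 0.615 by limma with Benjamini-Hochberg adjustment). Lbr is a sterol reductase that also holds chromatin to the nuclear envelope. Lbr had 140, 148 and 142 in Gdpd3+/+ and 75.2, 92.8 and 124 in Gdpd3-/- (log2 fold change -0.59, adjusted p = 0.126 by limma with Benjamini-Hochberg adjustment).

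Of 14 other genes of the SREBP pathway and of sterol uptake, 0 were called and 2 had an unadjusted p under 0.05, both higher, with a median of -0.07. They were Stard4, a cytosolic sterol carrier (6.97 to 8.64 in Gdpd3+/+ and 10.2 to 12.6 in Gdpd3-/-), and Npc1, which releases cholesterol from lysosomes (1.76 to 2.16 in Gdpd3+/+ and 2.82 to 3.62 in Gdpd3-/-). Their log2 fold changes were 0.48 and 0.69, with adjusted p of 0.138 and 0.145 by limma with Benjamini-Hochberg adjustment.

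The 8 genes of LXR, the oxysterol receptor, and of sterol efflux had the highest median of these 5 lists, 0.54, with 0 called, 3 (37.5%) at an unadjusted p under 0.05 (all higher) and 4 higher without overlap, as were 23.5% of all genes tested. Abcg1, a sterol exporter, had an FPKM of 8.59, 7.86 and 8.82 in Gdpd3+/+ and of 10.9, 15.4 and 14.8 in Gdpd3-/- (log2 fold change 0.68, adjusted p = 0.0892 by limma with Benjamini-Hochberg adjustment). Nr1h3, which encodes LXR alpha, had 1.07, 1.05 and 0.444 in Gdpd3+/+ and 2.44, 3.83 and 2.16 in Gdpd3-/- (log2 fold change 1.65, adjusted p = 0.0948 by limma with Benjamini-Hochberg adjustment). Both genes were thus higher in every Gdpd3-/- library.

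Of 31 other genes of fatty acid synthesis, elongation and activation, 30 were found and 0 were called. Over the 27 that reached the limit in both genotypes, 2 (7.41%) had an unadjusted p under 0.05 (1 higher and 1 lower), with a median of 0.18. Acsl1, an acyl-CoA synthetase, had an FPKM of 8.97, 11.3 and 10.1 in Gdpd3+/+ and of 5.94, 5.87 and 6.27 in Gdpd3-/- (log2 fold change -0.74, adjusted p = 0.0627 by limma with Benjamini-Hochberg adjustment), and Olah, a thioesterase, was listed at 0 in all Gdpd3+/+ libraries and at 0.244, 0.661 and 0.1295 in Gdpd3-/-, so that it entered the test through Gdpd3-/- alone. Acsl1 was lower in every Gdpd3-/- library, and these libraries lay close together. Of 17 genes of fatty acid oxidation, 0 were called. Over the 16 that reached the limit in both genotypes, 6 (37.5%) had an unadjusted p under 0.05 (5 higher and 1 lower), with a median of 0.25. Acadvl, the very long chain acyl-CoA dehydrogenase, had 20.05 to 24.0 in Gdpd3+/+ and 31.8, 43.5 and 29.4 in Gdpd3-/- (log2 fold change 0.68, adjusted p = 0.0922 by limma with Benjamini-Hochberg adjustment), and Ppara, the nuclear receptor of this pathway, was at most 0.00425 in Gdpd3+/+ and 0.843, 0.279 and 0.207 in Gdpd3-/- and likewise entered the test through Gdpd3-/- alone. Oxidation genes are also strongly expressed in skeletal muscle, and the part of muscle RNA in these values was not tested.

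RNA of other cell types differed between the libraries, and bulk RNA-Seq cannot tell fewer cells of a type from less RNA per cell. The 12 skeletal muscle markers had a summed FPKM of 898 to 1325 in Gdpd3+/+ and of 11512, 16522 and 2206 in Gdpd3-/- replicates 5, 6 and 7, with none at 0, and none of the 12 was called by limma but all 12 had an unadjusted p under 0.05, and Acta1 was the most abundant. Replicates 5 and 6 were the libraries with the most muscle RNA. On the deposited scale both were below every Gdpd3+/+ library for 10 of the sterol and fatty acid genes (34.5%), against 16.6% of all genes tested. Both were above every one for 9 (31.0%), against 30.8%. After TMM scaling these counts were 14 and 2, and after quantile normalization 12 and 5. Adipocytes make fatty acids in quantity, and their 10 markers summed to 48.4 to 56.6 in Gdpd3+/+ and to 120, 122 and 90.4 in Gdpd3-/-, with 0 called, 3 of 9 tested at an unadjusted p under 0.05 and Pnpla2 the most abundant. The adipocyte markers did not agree on the order of the Gdpd3-/- libraries. Adipoq, the defining marker, was at 0 in replicates 5 and 6 and at 2.22 in replicate 7, against 0.201 to 0.888 in Gdpd3+/+. Cidec, Retn and Cfd were also highest in replicate 7. Fabp4 (8.33 to 14.0 in Gdpd3+/+ and 42.0, 53.2 and 21.9 in Gdpd3-/-) and Lpl (2.35 to 3.59 and 17.5, 23.7 and 5.66) were instead highest in replicates 5 and 6. Replicates 5, 6 and 7 listed 3, 5 and 0 of the 10 at 0. The 6 hepatocyte markers summed to at most 2.15 in any library. The part of these cells in the results above was not tested.

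The stem cell markers were present in all libraries (summed FPKM 761 to 832 in Gdpd3+/+ and 805 to 1064 in Gdpd3-/-), with Hoxa9 called higher (1 of 10). Of the 6 markers that the sort gated out, Flt3, which encodes CD135, was called higher (9.80 to 11.0 in Gdpd3+/+ and 36.8 to 46.5 in Gdpd3-/-), and Cd48 was at 39.8 to 44.8 and 51.6 to 92.2. Itgam, which encodes CD11b, was at 19.3 to 22.3 in Gdpd3+/+ and at 13.4, 1.69 and 8.43 in Gdpd3-/- (log2 fold change -1.82), and Ly6g at 19.0 to 44.2 and 23.6 to 40.6. The 11 neutrophil markers summed to 29738 to 32544 in Gdpd3+/+ and to 8361 to 13815 in Gdpd3-/- (5 called lower), with S100a8 the most abundant, and the 21 cell cycle genes to 1224 to 1287 and to 847 to 1142 (2 called lower, Cdk1 and Rrm2), with Mcm6 the most abundant. In the same order, summed levels were 1783 to 1858 and 516 to 733 for 9 macrophage and monocyte markers (Ly6c2 called lower), 2190 to 2784 and 697 to 1710 for 7 eosinophil, basophil and mast cell markers (Cpa3 called higher, Prg2 most abundant), 2352 to 2998 and 1119 to 1990 for 9 B and plasma cell markers (Xbp1 and Mzb1 called lower, Jchain most abundant), and 27.0 to 34.4 and 10.7 to 20.7 for 8 of stroma and endothelium (Vcam1 called lower). Among 6 T and NK cell markers (386 to 461 and 153 to 316, Nkg7 most abundant), 10 erythroid (2854 to 4661 and 1851 to 4622) and 7 of megakaryocytes and platelets (213 to 309 and 200 to 494), 0 were called, with 1 at an unadjusted p under 0.05 in each list. The macrophage and monocyte sum was mostly Ly6c2, at 1729 to 1796 in Gdpd3+/+ and 437 to 667 in Gdpd3-/-. The median log2 fold change of that list was 0.05, with 1 marker higher and 1 lower at an unadjusted p under 0.05. Vcam1 had means of 18.1 in Gdpd3+/+ and 2.84 in Gdpd3-/-, while the median of the stroma and endothelium list was 0.21. These 2 sums therefore do not describe their lists as a whole. Whether the lower proliferation and granule genes bear on the lipid genes was not tested.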

How the data were processed

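The authors trimmed paired-end reads of 150 bases, mapped them with STAR and deposited FPKM values per gene. Per the labels, their processing notes name mm9, Trim Galore, cutadapt 1.16, STAR 2.6.1a, featureCounts 1.6.1 and DESeq2. They also deposited a DESeq2 table, whose fold changes and p-values were not used, and whose base mean, a count signal averaged over the libraries by the authors, was read only as a check of scale. How reads shared by genes were counted is not given in the sources used here.

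FPKM times gene length came in whole steps in every library, taken as covered bases, and gave the depth. Covered bases divided by 150 approximate reads, which are not independent molecules after amplification. Genes whose mean FPKM reached 0.05 were tested on log2(FPKM + 0.1) in limma 3.58.1 (R 4.3.3), using an intensity trend, genotype as the only term and Benjamini-Hochberg adjustment over all genes tested. The code was tested on simulated data. Group means were compared by exact permutation tests over all 20 assignments, enumerated in Python 3.11.15 with NumPy 2.4.6. Fold changes on this scale understate those of low genes. As alternatives the pseudocount was set to 0.01 or 1, the limit on mean FPKM was dropped or raised to 1, values were scaled by TMM or quantiles, the trend was dropped, array weights were used, and each library was left out in turn. Motifs were searched in RefSeq promoters of GRCm38.p6, and no coordinate of the deposited table is printed.

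The members, the other gene lists and the marker lists were chosen with earlier results of these data known. All members are named, as are, from each other pathway list, the called genes or else the 2 with the smallest p, and, from marker lists, the most abundant marker where the sums did not overlap. Acat2, Adipoq, Cd48, Itgam, Ly6g, Ctsb (which overlaps Fdft1), 5830462I19Rik (which overlaps Scap), pathway genes called only under other settings and called markers of lists with at most 2 calls were named after their values were seen. So were Fabp4, Lpl, Cidec, Retn and Cfd.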

Additional observations from a re-analysis of the deposited data

How the results depend on the processing

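No paired analysis was possible because the genotypes share no replicate numbers. Over 405 pairs of a member and an alternative, 382 kept the direction and the side of the threshold, 3 passed the threshold (Idi1, Elovl5 and Scd1 without Gdpd3-/- replicate 7) and 20 changed sign, in 11 members, all with small fitted changes. Under TMM scaling the log2 fold change became -0.17 for Sqle, -0.042 for Ebp, -0.081 for Dhcr7, -0.16 for Scap, -0.035 for Insig1, -0.066 for Insig2 and -0.0012 for Acss2. Under quantile normalization it became -0.051 for Sqle and -0.036 for Scap, and with array weights 0.030 for Lss. With 1 library left out the fitted change ranged from -0.14 to 0.21 for Sqle, -0.21 to 0.15 for Lss, -0.26 to 0.079 for Acly, -0.29 to 0.085 for Fads1, -0.069 to 0.43 for Dhcr7, -0.38 to 0.10 for Fads2 and -0.10 to 0.22 for Scap. The members' median was -0.081 under TMM scaling and 0.02 to 0.15 with 1 library left out. Members called lower ranged from 0 to 3 with 1 library left out. Over all genes, 270 were called higher and 152 lower. These became 124 and 101 with a pseudocount of 1, 471 higher at a mean FPKM limit of 1, 118 and 252 under TMM scaling, 119 higher under quantile normalization, 79 and 74 without the trend and 124 higher with array weights. With 1 library left out they ranged from 0 to 2364 higher and from 0 to 1049 lower, the largest without Gdpd3-/- replicate 7 and 0 higher without Gdpd3+/+ replicates 1 or 2. The cause was not tested. Low counts limit Scd1 and Hsd17b7 in Gdpd3-/- replicates 5 and 6. With 3 libraries a group and a wider spread in Gdpd3-/-, changes both under and over a doubling can go uncalled. Gdpd3 itself, at a log2 fold change of -4.00, had an adjusted p of 0.0588 by limma with Benjamini-Hochberg adjustment.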
